A study of Mus musculus with 2 samples.

Results

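The 8 genes described here are transcription factors of head mesenchyme, neural crest and surface ectoderm, the tissues that flank the closing cranial neural tube: the homeobox genes Alx1 and Alx4, the AP-2 genes Tfap2a, Tfap2b and Tfap2c, and the grainyhead-like genes Grhl1, Grhl2 and Grhl3. They were taken by gene symbol and by no rule on their values from the 32285 genes of the deposited count tables, but with earlier results of these data known. All 8 had at least 20 unique molecular identifiers (UMIs, each 1 counted RNA molecule) in the kept cells, as did 19789 genes in all. Alx proteins are paired-type homeodomain factors of the crest-derived mesenchyme of the face and forebrain. AP-2 factors act in surface ectoderm and in neural crest, and the mouse Tfap2a knockout has an open cranial neural tube. Grainyhead-like factors switch on junction and barrier genes of the surface ectoderm, the sheet that has to meet and fuse over the closing neural folds, and mouse Grhl2 and Grhl3 mutants fail to close cranial or spinal regions.

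The NTD library came from mouse embryos with neural tube defects (NTD), whose dams were on a low-folate diet and received 1.5 mg/kg of methotrexate (MTX), a folate antagonist, into the peritoneum at gestational day 7.5. These embryos were small and delayed, mostly with a malformed hindbrain or spina bifida. The control library came from embryos of the normal saline group, with closed neural tubes; the sources used here do not state the diet of those dams. Closure was scored between E9.5 and E10.5, and the sources used here state neither strain nor stage at harvest nor how many embryos were pooled per library.

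With 1 library per group there is no replicate check of any difference, no test was run, and every interval below is a 95% interval that covers counting error only. After removal of doublets the NTD library held 16151 cells with 45312130 UMIs (median 2437 per cell) and the control library 15813 cells with 39629955 UMIs (median 2167). The libraries shared 105 cell barcodes. Cells were grouped into 24 clusters from which all genes of the 3 families had been left out, and 20 clusters took a class name ending in "-like" from marker genes. The libraries stood apart in the tissue they held: 5 clusters, among them a mesenchyme-like cluster led by the limb genes Tbx15, Tbx4 and Tbx5 and a liver or yolk sac-like cluster, were made up to more than 90% of control cells. The tissue is labelled brain, yet all 9 limb or body wall mesenchyme markers were detected in both libraries, and their summed level was 659.8 CPM (counts of a gene scaled to the summed UMIs of the cells) in NTD and 1362 CPM in control cells. This sum does not measure limb tissue alone. Meis2, on that list, was also among the leading genes of a sub-cluster of cluster 2, which carries neural progenitor markers. The Tbx15-led cluster held 18 NTD and 2033 control cells. Any difference over all cells is therefore one of embryos and of dissected tissue at once, which cannot be told apart, nor can fewer cells of a type and less RNA per cell.

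Erythroid-like cells, which should lack all 8 factors, were used as the measure of free RNA that every droplet takes up. They held 17 Alx1 UMIs in 159 NTD cells (46.8 CPM) and 6 in 326 control cells (9.34 CPM). For Tfap2b they held 6 UMIs (16.5 CPM) in NTD and 19 (29.6 CPM) in control, and for Tfap2c 5 UMIs (13.8 CPM) in NTD and 1 (1.56 CPM) in control. Alx4, Tfap2a and Grhl2 had at most 3 UMIs there in either library, and Grhl1 and Grhl3 had none, where the exact Poisson interval reaches 10.2 CPM in NTD and 5.74 CPM in control. The background of Alx1 thus stood higher in the NTD library, while the interval of the Tfap2b ratio in these cells includes 0 (-2.45 to 0.54). In endothelium-like cells Tfap2b was at 28.4 CPM in NTD and 14.7 CPM in control.

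Across every kept cell, 2 of the 8 members were at least 1.5-fold higher in the NTD library and 2 were at least 1.5-fold lower. Among the 19789 measured genes, 5.28% were that much higher and 22.2% that much lower, and the median log2 ratio of NTD over control was -0.24. Alx1 had 3177 UMIs, 70.1 CPM, in NTD and 1238 UMIs, 31.2 CPM, in control cells, a log2 ratio of 1.17 (1.07 to 1.26). Tfap2c stood at 18.5 CPM in NTD and 12.2 CPM in control cells, just past the threshold with a log2 ratio of 0.60 (0.44 to 0.76). It dropped below the threshold when only cells of at least 1600 UMIs were kept. Grhl1 and Grhl3 were lower in NTD: Grhl1 had 45 UMIs (0.993 CPM) in NTD and 80 (2.02 CPM) in control, and Grhl3 58 (1.28 CPM) in NTD and 104 (2.62 CPM) in control.

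The other 4 members differed by less than 1.5-fold between the libraries. Alx4 was at 16.2 CPM in NTD and 16.6 CPM in control, and Tfap2b at 69.2 CPM in NTD and 70.5 CPM in control. Tfap2a was at 24.4 CPM in NTD and 28.3 CPM in control, with a log2 ratio of -0.22 (-0.34 to -0.094), close to the median of all genes. Grhl2 was at 9.47 CPM in NTD and 11.5 CPM in control. These sums mix classes in which Tfap2a and Tfap2b differed in opposite directions.

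**Figure D1:**
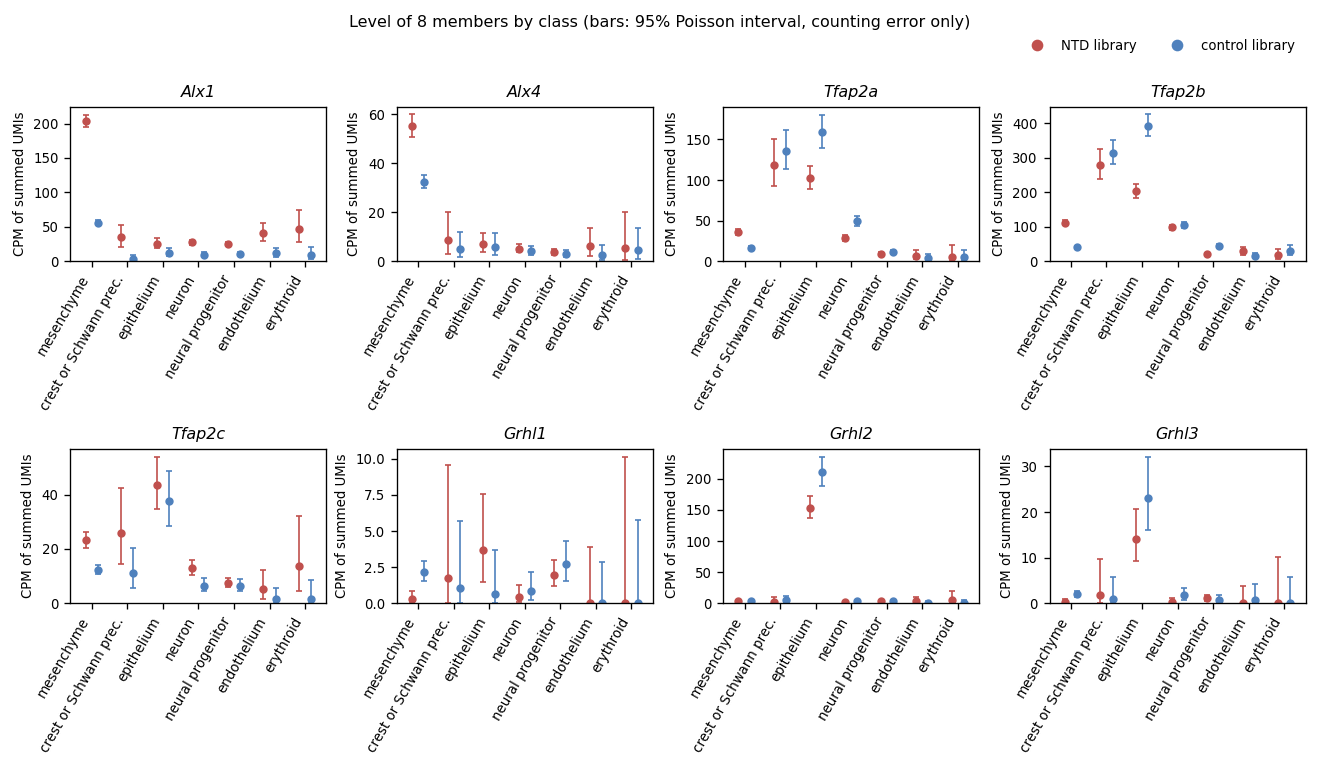
Level of each member (CPM of UMIs summed over a class, with 95% Poisson interval) in 7 classes, NTD library in red and control library in blue. Alx1 and Alx4 stand highest in mesenchyme-like cells, Tfap2a and Tfap2b in crest and epithelium-like cells, Grhl2 and Grhl3 in epithelium-like cells, and erythroid-like cells give the background of free RNA.

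Alx1 and Alx4, the mesenchymal members, were found mainly in mesenchyme-like cells, which held 65.8% of the Alx1 UMIs of the NTD library and 77.9% of those of the control library. For Alx4 the class held 76.8% in NTD and 85.7% in control. Within the class both were highest in cluster 1, led by Hpse2, Lhx8 and Cped1, whose cells carry the head mesenchyme markers Prrx1 (481 CPM in NTD and 637 CPM in control) and Crabp1 (542 CPM in NTD and 382 CPM in control). Alx1 reached 235 CPM there over both libraries (226 to 245), clear of every other cluster, and Alx4 61.8 CPM (57.2 to 66.7). The next clusters for Alx4 were the Tbx15-led limb-type cluster 5 and the Pax9-expressing cluster 6, whose order depends on the library. Cluster 6 stood at 51.7 CPM in NTD and 23.4 CPM in control, and cluster 5, nearly all of it control cells, at 35.5 CPM in control (30.9 to 40.7), above control cluster 6 (19.2 to 28.2). For Alx1 all other clusters lay at 42.3 CPM or below over both libraries, beside the erythroid-like level of 46.8 CPM in NTD and 9.34 CPM in control. Cluster 5 (18 NTD and 2033 control cells) was at 28.0 CPM and the Wt1-led cluster 7 (88 NTD and 1404 control cells) at 38.6 CPM. As nearly all of their cells are control cells, these levels stand above the erythroid-like level of their own library.

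In all mesenchyme-like cells, 5 members were at least 1.5-fold higher in the NTD library, where 6.72% of 17018 measured genes were that much higher and 18.1% that much lower. Alx1 was at 204 CPM in NTD and 55.8 CPM in control (log2 ratio 1.87, 1.76 to 1.98). Alx4 was at 55.1 CPM in NTD and 32.5 CPM in control, with a log2 ratio of 0.76 (0.59 to 0.93). The AP-2 members were higher too. Tfap2a was at 35.7 CPM in NTD and 16.6 CPM in control, Tfap2b at 112 CPM in NTD and 40.6 CPM in control, and Tfap2c at 23.2 CPM in NTD and 12.4 CPM in control. The control level of Tfap2b lay within the erythroid-like interval of 17.8 to 46.2 CPM, and the NTD level of Tfap2c within that of 4.47 to 32.1 CPM, so for these members 1 side of the ratio is not above background. Grhl1 had 3 UMIs in NTD and 37 in control mesenchyme-like cells, and Grhl3 had 3 in NTD and 34 in control.

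Inside cluster 1 none of the Alx and AP-2 members was higher in NTD. Cluster 1 held 17.7% of the kept NTD cells and 4.96% of the kept control cells, whereas the limb-type cluster 5 held 0.111% in NTD and 12.9% in control, and the Wt1-led cluster 7 held 0.545% in NTD and 8.88% in control. Within cluster 1, Alx1 had 1983 UMIs, 231 CPM, in NTD and 512 UMIs, 251 CPM, in control cells, a log2 ratio of -0.12 (-0.26 to 0.028). Alx4 there was at 58.0 CPM in NTD and 77.8 CPM in control (log2 ratio -0.43, -0.68 to -0.16). Tfap2a was at 40.6 CPM in NTD and 48.0 CPM in control, Tfap2b at 128 CPM in NTD and 149.8 CPM in control, and Tfap2c at 24.5 CPM in NTD and 25.9 CPM in control. None of the 5 was past 1.5-fold in cluster 1, where 6.59% of 14280 genes were higher and 12.7% lower by that much. All 5 ratios thus had opposite signs in the class and in this cluster, although the shift of -0.15 that TMM scaling (trimmed mean of M-values, a scaling on the bulk of genes) gives in cluster 1 is larger than the ratios of Alx1 and Tfap2c, whose sign it would turn. Grhl2 had 26 UMIs, 3.03 CPM, in NTD and 3 UMIs, 1.47 CPM, in control cells of cluster 1.

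Cluster 6, also mesenchyme-like, differed from cluster 1. There Alx1 was at 74.6 CPM in NTD and 28.2 CPM in control (log2 ratio 1.41, 1.00 to 1.80), and Alx4 at 51.7 CPM in NTD and 23.4 CPM in control (1.15, 0.67 to 1.60). The NTD level of Alx1 lies just inside the upper end of the erythroid-like interval of that library (27.3 to 75.0 CPM), whereas Alx4 had 2 UMIs in NTD erythroid-like cells. For Tfap2a, Tfap2b and Tfap2c in cluster 6 the intervals of the ratio include 0.

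**Figure D2:**
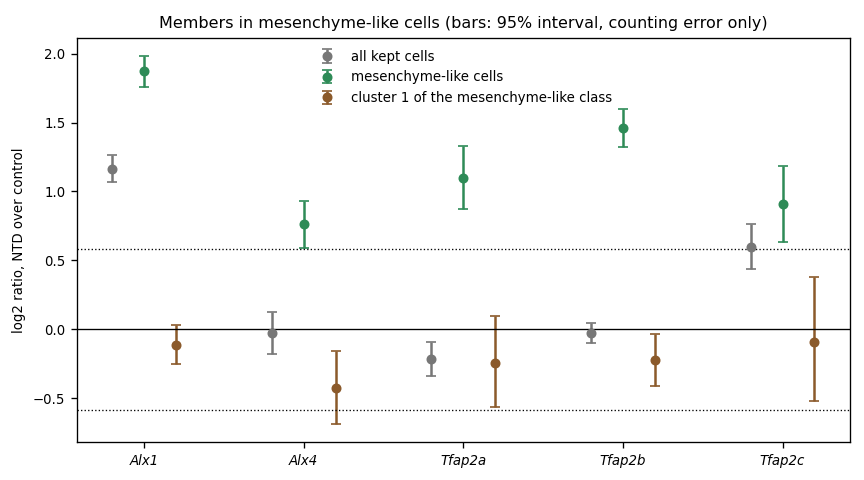
Log2 ratio of NTD over control for the Alx and AP-2 members over all kept cells (grey), in all mesenchyme-like cells (green) and in cluster 1 of that class (brown), with 95% intervals for counting error and dotted lines at 1.5-fold. All 5 members lie above the upper line in the class, and all 5 lie between the lines in cluster 1, from -0.43 for Alx4 to -0.092 for Tfap2c.

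The same can be put as a level. With the NTD library's cluster make-up but each cluster at its control level, Alx1 would stand at 57.7 CPM over all kept cells, beside the 70.1 CPM measured in NTD and the 31.2 CPM in control. The make-up of clusters thus held 0.88 of the log2 ratio of 1.17, and levels within clusters 0.28. The part within clusters sums over all clusters, those at background level included. In cluster 1 Alx1 was at 231 CPM in NTD and 251 CPM in control. In the unnamed cluster 2 it was at 26.2 CPM in NTD and 7.22 CPM in control, below the erythroid-like level of each library. For Tfap2c the make-up part was 0.81 and the part within clusters -0.21. Alx4, Tfap2a and Tfap2b had make-up parts of 0.17, 0.27 and 0.34 and parts within clusters of -0.20, -0.49 and -0.37.

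Cluster 1 was not uniform for Alx1. Among its 7 sub-clusters, Alx1 was highest in sub-cluster 5 (Bmper, Cacna2d3), at 471 CPM in NTD and 565 CPM in control. It was lowest in sub-cluster 0 (Ebf2, Stk26), at 58.4 CPM in NTD and 85.4 CPM in control. The sub-cluster led by Sgpp2 and Pax7 held 375 CPM in NTD and 404 CPM in control. In sub-cluster 2 (Il1rapl2, Col8a2) it was at 154 CPM in NTD and 259.8 CPM in control (log2 ratio -0.76, -1.13 to -0.37). In sub-cluster 3 (Ncam2, Parm1) Alx1 went the other way, at 395 CPM in NTD and 296 CPM in control (0.41, 0.073 to 0.77). These were the sub-clusters whose intervals exclude 0. Sub-cluster 6 (Lgr5, Col19a1) had 72 UMIs, 296 CPM, in NTD and 23 UMIs, 457 CPM, in control, with an interval that reached 0.12.

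Other head mesenchyme transcription factors, a list of 20 genes all measured, had medians of opposite sign in the class and in cluster 1. Some of them, such as Prrx1 and Twist1, are also on the marker lists from which clusters were named. In the whole mesenchyme-like class 11 of the 20 were past 1.5-fold higher and 2 lower, beside 6.72% and 18.1% of all genes. The median log2 ratio was 0.81 beside -0.19 for all genes. In cluster 1, 1 was higher and 5 were lower, beside 6.59% and 12.7% of all genes, with a median of -0.29 beside -0.16 for all genes. Prrx1, a paired-type homeobox gene of limb and head mesenchyme, was at 445 CPM in NTD and 424 CPM in control mesenchyme-like cells, and at 481 CPM in NTD and 637 CPM in control cells of cluster 1. Msx1, a homeobox gene of BMP-receiving mesenchyme, was at 106 CPM in NTD and 61.7 CPM in control cells of the class, and at 106 CPM in NTD and 142 CPM in control cells of cluster 1.

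Outside the mesenchyme, Alx1 was higher in the NTD library in every class with at least 20 UMIs, for example at 27.2 CPM in NTD and 9.59 CPM in control neuron-like cells. It stood at 25.1 CPM in NTD and 10.9 CPM in control neural progenitor-like cells. The erythroid-like cells, at 46.8 CPM in NTD and 9.34 CPM in control, show the same direction, so these values are read as background and not as expression. The share of barcodes with an Alx1 UMI after thinning each barcode to 1500 UMIs was 22.5% in NTD and 6.77% in control mesenchyme-like cells, against 8.18% in NTD and 1.37% in control erythroid-like cells. Before thinning those shares were 32.7% in NTD and 10.3% in control mesenchyme-like cells (median 2725 UMIs in NTD and 2535 in control), against 10.7% in NTD and 1.84% in control erythroid-like cells (median 2105 UMIs in NTD and 1750 in control).

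The AP-2 genes Tfap2a and Tfap2b had their highest levels in crest-like and in epithelium-like cell types. The epithelium-like class was mixed: its sub-cluster 4 (Rfx6, Gata4, Nr5a2), with the endoderm markers Foxa1 and Shh, held 49 control and 0 NTD cells. In the Sox10-expressing neural crest or Schwann precursor-like cluster Tfap2a reached 129.8 CPM over both libraries and in epithelium-like cells 127.5 CPM, which did not differ beyond counting error. The order of these cell types for Tfap2b depended on the library: in NTD it was at 279 CPM (238 to 325) in crest-like and 204 CPM (184 to 225) in epithelium-like cells, and in control at 315 CPM (280 to 352) in crest-like and 393 CPM (362 to 426) in epithelium-like cells. Across the 41 cluster-by-library sums of at least 50 cells, log2 levels of Tfap2a and Tfap2b were correlated with Pearson's r of 0.90, the closest pair among the 8 members. These sums share library, depth and free RNA, so r is a description. The pair was also found together in single cells of the whole epithelium-like class. Both genes differ widely in level between the sub-clusters of that class, as given below, so these shares include that mixture. Joint detection within sub-clusters was not tested. After thinning, 49.4% of Tfap2a-positive NTD epithelium-like cells held a Tfap2b UMI against 13.6% of those without Tfap2a, and in control epithelium-like cells the shares were 54.3% and 25.6%. In crest-like cells no such joint detection was seen beyond independence, with 10 barcodes positive for both in NTD where 9.09 would follow from independence, and 12 in control where 18.7 would.

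RefSeq promoter windows on GRCm38.p6 matched Tfap2a, Tfap2b, Grhl1 and Grhl3, and the 250 bases before the first listed start of each are shown, 5′ to 3′ on the gene's strand, because Tfap2a and Tfap2b were detected together, Grhl3 lay in the same epithelium and Grhl1 had few UMIs there. They lie at chr13:40734921-40735170 (minus strand), chr1:19211804-19212053 (plus), chr12:24572037-24572286 (plus) and chr4:135573633-135573882 (minus). Capitals mark a match to a searched motif on either strand.
Tfap2a: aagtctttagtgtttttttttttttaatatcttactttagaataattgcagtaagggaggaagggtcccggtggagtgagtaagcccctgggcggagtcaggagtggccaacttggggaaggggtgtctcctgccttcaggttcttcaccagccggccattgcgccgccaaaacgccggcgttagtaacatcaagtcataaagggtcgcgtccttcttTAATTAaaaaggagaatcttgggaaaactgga
Tfap2b: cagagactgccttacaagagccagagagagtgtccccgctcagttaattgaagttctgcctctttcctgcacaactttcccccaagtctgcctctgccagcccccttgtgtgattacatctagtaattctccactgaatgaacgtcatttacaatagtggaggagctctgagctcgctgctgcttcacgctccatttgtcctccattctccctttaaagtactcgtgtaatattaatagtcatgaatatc
Grhl1: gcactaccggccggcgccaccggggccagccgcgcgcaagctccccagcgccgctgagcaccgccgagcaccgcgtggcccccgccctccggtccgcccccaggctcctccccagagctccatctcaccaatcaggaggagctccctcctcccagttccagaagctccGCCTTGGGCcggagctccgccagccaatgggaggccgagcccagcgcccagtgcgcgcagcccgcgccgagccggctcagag
Grhl3: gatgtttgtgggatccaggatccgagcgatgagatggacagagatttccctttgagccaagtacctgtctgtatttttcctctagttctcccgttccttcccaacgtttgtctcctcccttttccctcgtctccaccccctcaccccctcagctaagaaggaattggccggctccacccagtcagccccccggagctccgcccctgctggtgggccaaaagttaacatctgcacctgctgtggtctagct
Motifs searched were AACCGGTT and AACCNGTT for grainyhead-like factors, GCCNNNGGC for AP-2 and TAATTA for homeodomain proteins, together with the Alx palindrome, inverted TAAT repeats around a short spacer. The Tfap2a window held 1 TAATTA, a motif found in 4.84% of 32851 windows of this length, and the Grhl1 window held 1 GCCNNNGGC, found in 13.7% of windows. AACCGGTT was found in 0.116% of windows, AACCNGTT in 1.79% and the Alx palindrome in 0.463%. The Tfap2b and Grhl3 windows held none of the 5 motifs. The search covered both strands, and AACCNGTT includes AACCGGTT. A match is a string of letters and no evidence of binding. The Tfap2a and Tfap2b windows lie inside the gene spans of the GENCODE annotation, chr13:40715302-40738376 and chr1:19208914-19238576.

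Epithelium-like cells, marked by Trp63, Cdh1 and Esrp1, were 3.90% of NTD and 3.28% of control cells, and of the 5 members above background in them 3 were at least 1.5-fold lower in NTD and none higher. Of 12209 measured genes 19.6% were that much lower and 8.34% that much higher. Tfap2b was at 204 CPM (184 to 225) in NTD and 393 CPM (362 to 426) in control, with a log2 ratio of -0.95 (-1.14 to -0.76). Tfap2a was at 102 CPM in NTD and 159 CPM in control (-0.64, -0.92 to -0.36). Grhl3 had 27 UMIs, 14.2 CPM, in NTD and 35 UMIs, 23.1 CPM, in control, with an interval of -1.49 to 0.058, and its level lay clear of the erythroid-like interval in control but overlapped it in NTD. Grhl2 had 293 UMIs, 154 CPM, in NTD and 320 UMIs, 212 CPM, in control, with a log2 ratio of -0.46 (-0.69 to -0.23) that stayed under 1.5-fold. Tfap2c, at 43.5 CPM in NTD and 37.7 CPM in control, was the one of these 5 that was not lower. Its log2 ratio was 0.20 (-0.30 to 0.72), on 83 UMIs in NTD and 57 in control. Sub-cluster make-up held -0.49 of it and levels within sub-clusters 0.70. With TMM scaling, which shifts the class by -0.19, Tfap2b stayed past 1.5-fold at -0.76, while Tfap2a at -0.45 and Grhl3 at -0.51 did not. Alx1 had 48 UMIs, 25.2 CPM, in NTD and 19 UMIs, 12.6 CPM, in control epithelium-like cells, below or near its erythroid-like levels given above.

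The libraries differed in which epithelium they held. Hox genes mark hindbrain and trunk levels, and a Hox UMI was found in 11.9% of NTD and 65.4% of control epithelium-like cells, against 11.9% in NTD and 46.3% in control erythroid-like cells, so the NTD share did not exceed its background. Sub-cluster 3, led by Gabrg3, Hoxc5, Cdh13 and Hoxc6, held 4 NTD cells and 188 control cells, and its control cells had 708 CPM of Tfap2b, 230.4 CPM of Tfap2a and 227 CPM of Grhl2. Sub-cluster 0, led by Hs3st5, Grm7 and Dmrt3, held 44.1% of the NTD and 9.27% of the control epithelium-like cells. Its levels of Tfap2a and Tfap2b were low, each at 19.3 CPM in NTD and 20.3 CPM in control, but Grhl2 was at 172 CPM in NTD and 223 CPM in control.

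**Figure D3:**
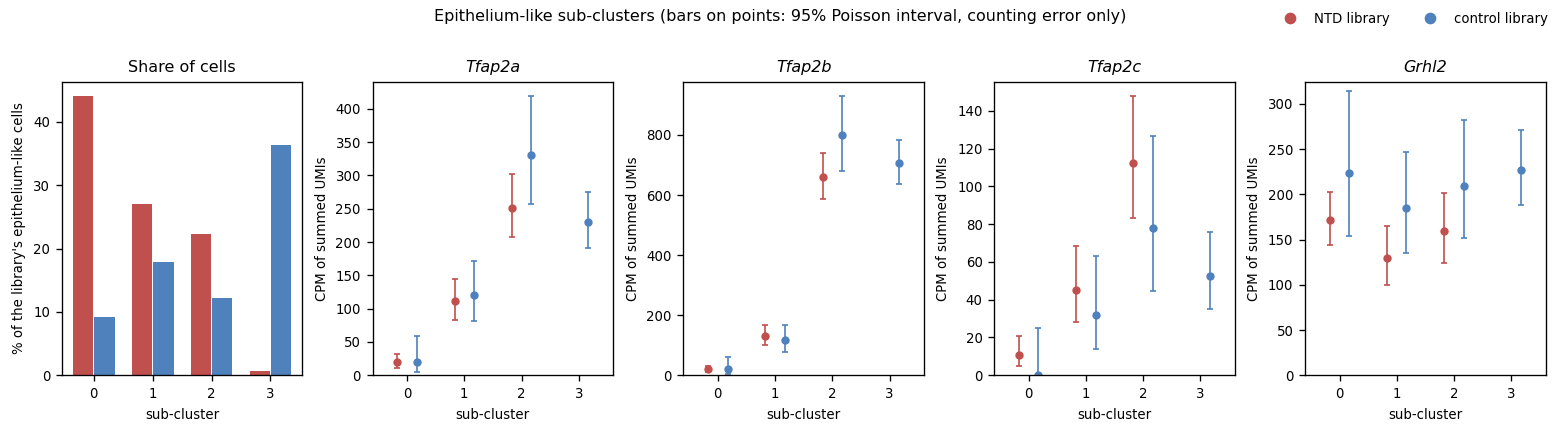
Share of each library's epithelium-like cells in the 4 sub-clusters with the most cells (bars, first panel) and level of Tfap2a, Tfap2b, Tfap2c and Grhl2 in them (points, CPM with 95% Poisson interval), NTD in red and control in blue. The 4 NTD cells of sub-cluster 3 give no point. Tfap2a and Tfap2b run from 19.3 CPM in NTD cells of sub-cluster 0 to 251 and 660 CPM in those of sub-cluster 2, while Grhl2 lies between 129 and 227 CPM throughout.

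In the sub-clusters that both libraries held in number, the difference of Tfap2a and Tfap2b was smaller. In sub-cluster 2 (Piezo2, Nkain2, Wnt9b) Tfap2b was at 660 CPM in NTD and 799 CPM in control, with a log2 ratio of -0.28 (-0.56 to 0.0096), and Tfap2a at 251 CPM in NTD and 331 CPM in control. In sub-cluster 1 (led by Chl1) Tfap2b was at 131 CPM in NTD and 117 CPM in control and Tfap2a at 111 CPM in NTD and 121 CPM in control. Without the 4 sub-clusters that took over 90% of their cells from 1 library, a choice made after the sub-clusters were seen, 1 member was past 1.5-fold lower in place of 3, and Tfap2b stood at a log2 ratio of -0.48. Among epithelium-like cells without a Hox UMI, Tfap2b was at 204 CPM in NTD and 303 CPM in control (-0.57, -0.86 to -0.28) and Tfap2a at 99.4 CPM in NTD and 127 CPM in control (-0.37, -0.80 to 0.098). Of the log2 ratio of Tfap2b in this class, sub-cluster make-up held -0.77 and levels within sub-clusters -0.18.

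Grhl2 was lower in NTD in each of sub-clusters 0, 1 and 2, as was Tfap2a, with Grhl2 at 172, 129 and 159 CPM in NTD and 223, 185 and 209 CPM in control, and Grhl2 ratios of -0.40, -0.52 and -0.40 whose intervals all include 0. Make-up held -0.069 of the log2 ratio of Grhl2 and levels within sub-clusters -0.39. The median of all genes in the class was -0.19, so relative to that median the Grhl2 difference was smaller.

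Grhl2, the grainyhead-like gene of epithelial junctions, was found mainly in 1 class: epithelium-like cells held 68.3% of its UMIs in NTD and 70.5% in control, although they held 4.21% of all UMIs in NTD and 3.82% in control. Its level there over both libraries, 179 CPM, was followed by the liver or yolk sac-like cluster at 22.9 CPM on 9 UMIs. After thinning, 21.0% of NTD and 27.1% of control epithelium-like cells had a Grhl2 UMI, against 1.26% in NTD and 0 of 219 in control erythroid-like cells, where the exact Clopper-Pearson interval reaches 1.67%. Before thinning the epithelial shares were 33.3% in NTD (median 2654.5 UMIs) and 39.6% in control (median 2483.5 UMIs). Grhl3, which acts in surface ectoderm and in caudal closure, had 46.6% of its UMIs in epithelium-like cells in NTD and 33.7% in control. Another 24 of its 104 control UMIs lay in the Wt1-led cluster 7, where the 88 NTD cells had none.

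Grhl1, known for its part in epidermal junctions, did not follow the others. Its level was highest in the Myh6-led cardiac muscle-like cluster 22, at 47.7 CPM over both libraries (26.7 to 78.7), from 4 UMIs in 48 NTD cells (25.2 CPM) and 11 UMIs in 46 control cells (70.8 CPM). The intervals of 6.86 to 64.5 CPM in NTD and 35.4 to 127 CPM in control overlap. In cluster 7 it had 0 UMIs in 88 NTD cells and 27 in 1404 control cells (7.25 CPM), so cluster 7 alone held 33.8% of its control UMIs. In epithelium-like cells it had 7 UMIs in NTD and 1 in control. In no class did Grhl1 reach the 50 UMIs set for reading a difference.

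The genes around these members in the epithelium were taken from fixed lists. Of 21 epithelial junction and Grhl-linked genes 20 were measured, 0 were past 1.5-fold higher and 5 lower, a share near that of all genes, and their median log2 ratio of -0.17 stood beside -0.19 for all genes. Epcam, a surface adhesion protein of epithelia, was at 175 CPM in NTD and 119 CPM in control. Cdh1, the gene of E-cadherin, was at 95.5 CPM in NTD and 143 CPM in control, past 1.5-fold by a narrow margin at -0.59. Esrp1, an epithelial splicing factor, was at 119.6 CPM in NTD and 157 CPM in control. Of 17 surface ectoderm identity genes 14 were measured, 1 was higher and 7 were lower, with a median of -0.50, beside the 8.34% higher and 19.6% lower of all genes in the class. Trp63, the p63 gene of stratified epithelium, was at 270.2 CPM in NTD and 446 CPM in control (-0.72, -0.89 to -0.56), and Wnt6 at 49.8 CPM in NTD and 87.3 CPM in control. Krt18 was level, at 75.0 CPM in NTD and 74.7 CPM in control. Trp63 and Wnt6 were markers of sub-clusters 2 and 3 but not of sub-cluster 0, which held 44.1% of the NTD and 9.27% of the control cells. The part of this make-up in the list was not tested. Less the TMM shift of the class, the ratios of Cdh1 and Trp63 are under 1.5-fold.

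In the neural crest or Schwann precursor-like cluster neither Tfap2a nor Tfap2b was past 1.5-fold, where 9.66% of 9796 genes were higher and 18.8% lower. Tfap2a had 69 UMIs in 188 NTD cells (119 CPM) and 133 in 328 control cells (136 CPM), a log2 ratio of -0.19 (-0.64 to 0.23). Tfap2b, with the levels given above, had a log2 ratio of -0.17 (-0.46 to 0.10). Tfap2c had 15 UMIs, 25.8 CPM, in NTD and 11 UMIs, 11.3 CPM, in control, past 1.5-fold higher with an interval of -0.025 to 2.46, and its NTD level lay within the erythroid-like interval. Of 20 neural crest regulators 15 were measured, 3 were higher and 3 lower, and the median was -0.0091 beside -0.15 for all genes. Sox10, the factor that keeps crest and glial precursors, was at 459 CPM in NTD and 809.7 CPM in control. Id2, an inhibitor of differentiation factors, was at 146 CPM in NTD and 84.0 CPM in control.

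In neuron-like cells the AP-2 genes differed from each other. Of the 2 genes with levels above background there, Tfap2a was past 1.5-fold lower, at 28.3 CPM in NTD and 49.5 CPM in control (-0.80, -1.09 to -0.52), and Tfap2b was not, at 97.9 CPM in NTD and 104 CPM in control. Among 14859 genes 16.2% were that much lower and 8.75% higher. With called doublets kept and the cells clustered anew, the log2 ratio of Tfap2a in neuron-like cells was -0.12. By cluster, Tfap2a was at 25.4 CPM in NTD and 63.9 CPM in control in cluster 8 (led by F13a1 and Cntnap5a), and at 25.0 CPM in NTD and 55.7 CPM in control in the Gad1-expressing cluster 10. Tfap2b in cluster 8 was at 148 CPM in NTD and 154 CPM in control. In cluster 10 it was at 61.4 CPM in NTD and 140.3 CPM in control, with a log2 ratio of -1.19 (-1.54 to -0.84). In cluster 14 (Thsd7b, Ppp1r1c) the intervals of both ratios include 0, with Tfap2a at 53.6 CPM in NTD and 60.1 CPM in control and Tfap2b at 107 CPM in NTD and 79.5 CPM in control.

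Both AP-2 genes were also lower in NTD in cluster 11. The cluster, which carried 7 neuroblast and 7 neuron markers and stayed unnamed, had Tfap2a at 31.9 CPM in NTD and 87.9 CPM in control and Tfap2b at 139 CPM in NTD and 262 CPM in control. In the neural progenitor-like cluster 3 (Glra1, Scube2) Tfap2b was at 24.6 CPM in NTD and 55.7 CPM in control, with a log2 ratio of -1.17 (-1.55 to -0.82). Erythroid-like cells stood at 16.5 CPM in NTD and 29.6 CPM in control, so the NTD level of cluster 3 lay within the background interval of its library.

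**Figure D4:**
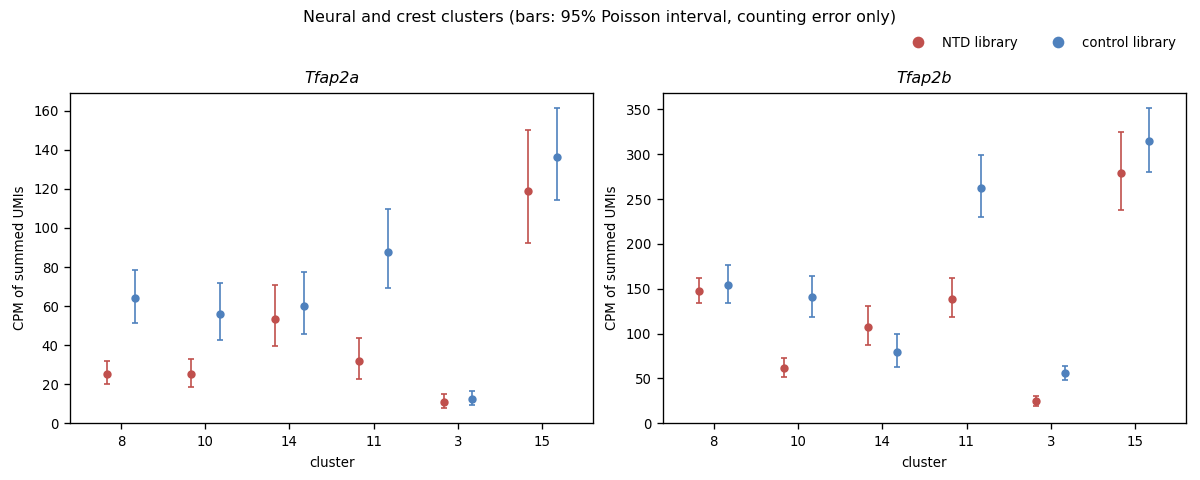
Level of Tfap2a and Tfap2b (CPM with 95% Poisson interval) in 3 neuron-like clusters (8, 10, 14), the unnamed cluster 11, progenitor-like cluster 3 and crest-like cluster 15, NTD in red and control in blue. Tfap2a is lower in NTD in clusters 8, 10 and 11, Tfap2b in clusters 10, 11 and 3, and the intervals of both overlap between libraries in clusters 14 and 15.

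Detection of Hox genes differed in all of these clusters, again beside 11.9% of NTD and 46.3% of control erythroid-like cells. A Hox UMI was found in 14.1% of NTD and 72.2% of control cells of cluster 8, in 13.2% of NTD and 76.2% of control cells of cluster 10, and in 17.3% of NTD and 80.0% of control cells of cluster 11. In clusters 14 and 15, where the intervals of both AP-2 ratios include 0, the shares differed too. They were 6.15% of NTD and 82.2% of control cells in cluster 14, and 21.8% of NTD and 81.7% of control cells in crest-like cluster 15. Among cells without a Hox UMI, Tfap2a in cluster 8 was at 22.8 CPM in NTD and 33.3 CPM in control (-0.60, -1.47 to 0.49), on 54 UMIs in NTD and 12 in control. Among such cells of cluster 10, Tfap2b was at 56.2 CPM in NTD and 94.8 CPM in control (-0.78, -1.46 to 0.016). Among such cells of cluster 11, Tfap2b was at 130.0 CPM in NTD and 233 CPM in control (-0.85, -1.36 to -0.29), the one of these 3 values whose interval excludes 0. The part of Hox-positive tissue in any of these differences was not tested.

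Tfap2c had a pattern of its own. Its levels were highest in the Eomes-expressing neuron-like cluster 18, the unnamed cluster 2 and epithelium-like cells, in an order that differed between the libraries. In NTD, cluster 18 (46.3 to 84.4 CPM) stood above cluster 2 (32.3 to 41.4 CPM), and in control the interval of cluster 2 (52.8 to 79.1 CPM) lay inside that of cluster 18 (29.4 to 105 CPM) and above that of epithelium-like cells (28.5 to 48.8 CPM). Eomes is a T-box factor of intermediate progenitors and young glutamatergic neurons of the forebrain. In cluster 18 Tfap2c had 46 UMIs in 275 NTD cells (63.2 CPM) and 11 UMIs in 82 control cells (58.8 CPM). Cluster 2 carried 4 neural progenitor markers and forebrain genes such as Nr2e1 and Nkx2-1, and held 14.7% of NTD and 3.95% of control cells. It held 30.4% of the Tfap2c UMIs of the NTD library and 20.5% of those of the control library.

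Within cluster 2 Tfap2c was lower in NTD, opposite to its direction over all cells, at 36.7 CPM in NTD and 65.0 CPM in control (-0.83, -1.17 to -0.48). There 13.8% of 13795 genes were that much lower and 5.78% higher. Its highest levels lay in 3 of 9 sub-clusters. The sub-cluster led by Adamts18, Prkg2 and Emx1, a gene of the dorsal telencephalon, had 114 CPM in NTD and 112 CPM in control. The sub-cluster led by Rspo2, Bmp6 and Lmx1a, genes of the dorsal midline, had 28 UMIs, 83.9 CPM, in NTD and 19 UMIs, 186 CPM, in control (-1.16, -2.04 to -0.23). The sub-cluster led by Fstl5 and Sh3rf3 had 48.1 CPM in NTD and 84.9 CPM in control (-0.83, -1.45 to -0.16). The intervals of these last sub-clusters exclude 0 and that of the Emx1-expressing one does not (-0.53 to 0.60), and the difference between sub-clusters was not tested. The leading genes of these sub-clusters were named after their values were seen.

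**Figure D5:**
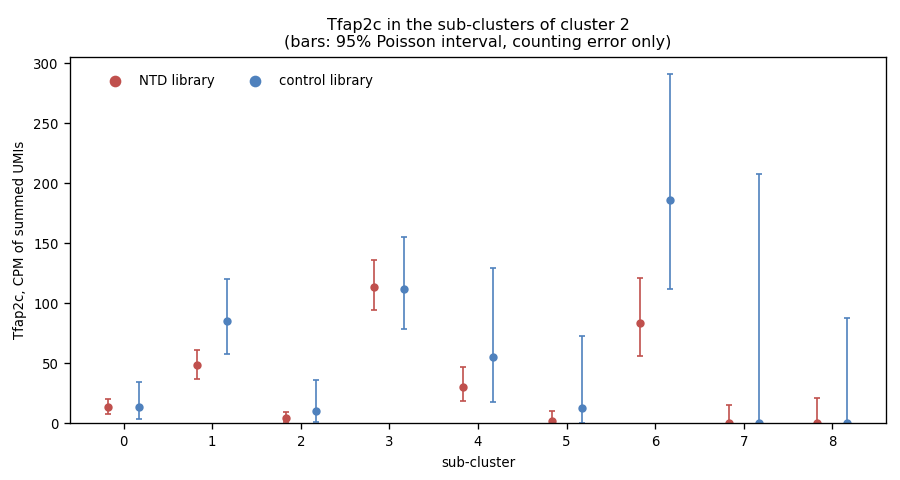
Tfap2c (CPM with 95% Poisson interval) in the 9 sub-clusters of cluster 2, NTD in red and control in blue. Sub-cluster 3 (led by Adamts18) has like levels in both libraries, sub-clusters 1 (Fstl5) and 6 (Rspo2) are lower in NTD, and in sub-clusters 7 and 8 no UMI was found in either library.

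Genes whose level followed the members most closely over the 41 cluster-by-library sums, out of 12601 genes compared, were taken from the 3 highest values of r. They included Crym and Prrx2 for Alx1 (r 0.80 and 0.76) and were Hpse2, Prrx1 and Prrx2 for Alx4 (0.82, 0.80 and 0.80). For Tfap2a they were Gfra2, Lypla2 and Eya2 (0.66, 0.66 and 0.65), for Tfap2b Prdm12, Pink1 and Lypla2 (0.61, 0.61 and 0.60), and for Tfap2c Dmrt3, Emx2 and Haus2 (0.71, 0.69 and 0.64). Grhl2 was followed by Macc1, Spint2 and Arhgap8 (0.79, 0.78 and 0.78) and Grhl3 by Fermt1, Esrp1 and Lypd6b (0.83, 0.80 and 0.75). For Grhl1, with 125 UMIs in all, they were Tmem47, Lurap1 and Nectin3 (0.69, 0.68 and 0.67). Between members, Grhl2 and Grhl3 had r of 0.68 and Alx1 and Alx4 0.65.

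Partners of the AP-2 factors had a median above that of all genes in each class read, whichever way Tfap2a and Tfap2b differed there. Of the 8 genes in this list, which includes the Cited co-activators and the inhibitors Kctd1 and Kctd15, 8 were measured in epithelium-like, mesenchyme-like and neuron-like cells and 7 in crest-like cells. In epithelium-like cells 0 were past 1.5-fold, and the median log2 ratio was 0.044, beside -0.19 for all genes. In mesenchyme-like cells 1, Cited2, was past it, at 59.5 CPM in NTD and 37.5 CPM in control. The median there was 0.24, beside -0.19 for all genes, and Tfap2a and Tfap2b were higher there too. In neuron-like cells 1, Yeats4, was past it, at 120.4 CPM in NTD and 70.6 CPM in control. The median there was 0.26, beside -0.17 for all genes. In crest-like cells 2 were lower, with Kctd1 at 75.7 CPM in NTD and 124 CPM in control. The median there was 0.14, beside -0.15 for all genes. Of all genes in these classes 6.72% to 9.66% were past 1.5-fold higher and 16.2% to 19.6% lower.

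On GRCm38 the members lie on 7 chromosomes, with Alx4 at chr2:93642384-93681339 and Tfap2c at chr2:172549593-172558622 on the same one. Reads of Alx4 may be hard to tell from Ext2 on the opposite strand, those of Tfap2a from Gm47061, Gm26688 and Gm47067, and those of Grhl2 from Gm16136, Gm16137 and Gm16138, if strand was not used in counting, which the sources used here do not state. Alx1, at chr10:102998707-103030215, overlaps Gm17028 on its own strand.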

How the data were processed

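Both libraries were made with 10x Chromium 3′ v3 chemistry, per the labels' protocols. The deposited values are raw UMI counts per gene and barcode from Cell Ranger 7.0.1, per the file headers, with STAR and mm10 named in the submitters' processing notes. The sources used here do not state intron or strand settings. The 8 members and all gene lists were chosen with earlier results of these data known.

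All barcodes passed filters of at least 500 genes, 1000 UMIs and at most 10% mitochondrial UMIs. The automatic Scrublet threshold called 0 doublets, so the top scores at 0.8% per 1000 barcodes were removed, a choice made after that failure: 2905 in NTD (15.2%) and 2759 in control (14.9%). Cells were clustered in scanpy 1.11.5 with leidenalg 0.10.2 at resolution 1 on 2000 variable genes and 30 components, without any gene of the 3 families and without integration of the libraries. Clusters were named from marker lists.

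Levels are CPM of summed UMIs with exact Poisson intervals. Ratios are log2 of NTD over control with 0.5 counts added and exact conditional binomial intervals, and a call is a 1.5-fold difference among genes with at least 20 UMIs. A class was read for a member with at least 50 UMIs and a level above erythroid-like cells in at least 1 library, which gave 14 pairs of member and class. Shares of barcodes were taken after thinning to 1500 UMIs, which left out 3561 control barcodes and 0 NTD barcodes. Ratios and intervals were tested on simulated Poisson counts, the error that the intervals assume. The simulation held no variation between cells, embryos or libraries, so it cannot show how the intervals cover such variation. TMM factors came from edgeR 4.0.16 in R 4.3.3, and no count test was run. Named list genes are the 5 with the highest level in the class, and like-patterned genes the 3 with the highest r among genes with at least 200 UMIs. Further genes, such as those leading sub-clusters outside the epithelium, were named after their values were seen. Gene spans are GENCODE M21 on GRCm38 and promoters RefSeq on GRCm38.p6. Some genes that these rules select are not reported here.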

Additional observations from a re-analysis of the deposited data

Results flagged for a closer look

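Tfap2a and Tfap2b differed between the libraries in opposite directions in different classes. The log2 ratio of Tfap2a, NTD over control, was 1.10 in mesenchyme-like cells, -0.64 in epithelium-like cells and -0.80 in neuron-like cells. For Tfap2b it was 1.46 in mesenchyme-like cells and -0.95 in epithelium-like cells. The difference between classes was not tested, since each class has 1 library per group. In mesenchyme-like cluster 1 alone the ratios were -0.25 for Tfap2a and -0.23 for Tfap2b.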

How the results depend on the processing

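Of 312 values recomputed under alternatives, 200 of single members stayed within the interval of the main value, and 55 counts and medians stayed near theirs. Another 38 and 11 moved further. The remaining 8, of single members whose main interval excluded 0, took the other sign. Values whose main interval includes 0 were sorted by size alone, so changes of their sign are not among the 8. Over all cells the members past 1.5-fold higher went to 1 in place of 2 with a floor of 1600 UMIs, with the stricter cell filter, without clusters over 90% from 1 library and in cells without a Hox UMI. Among the 14 pairs of member and class, those past 1.5-fold lower (Tfap2a, Tfap2b and Grhl3 in epithelium-like and Tfap2a in neuron-like cells) went to 2 in place of 4 with TMM scaling, with called doublets kept and in cells without a Hox UMI, and to 1 in place of 3 without epithelial sub-clusters over 90% from 1 library; those higher in mesenchyme-like cells went to 0 in place of 5 in cluster 1 alone. The median of AP-2 partners in mesenchyme-like cells was 0.43 with TMM scaling, and without thinning 6 members in place of 3 had the higher share of barcodes in NTD. The log2 ratio of Tfap2a over all cells was 0.023 with TMM scaling, whose shift of the sums was -0.24, and 0.017 in cells without a Hox UMI, and its share difference was 0.083 percentage points without thinning. In cluster 1 alone the ratios were -0.12 for Alx1, -0.43 for Alx4, -0.25 for Tfap2a, -0.23 for Tfap2b and -0.092 for Tfap2c. The settings for Hox UMIs, sub-clusters and cluster 1 were chosen after seeing the data, and the cause of these changes was not tested. Classes gated on markers of single barcodes put 12542 NTD and 12685 control cells among erythroid-like ones and 3 NTD and 4 control cells among epithelium-like ones, so that gate gives no usable check of the classes. No paired analysis was possible because each group has 1 library.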
